A study of Mus musculus with 2 samples.

Results

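Subunit, inhibitor and target genes of the NF-kB pathway were followed in muscle cells treated with platelet-rich plasma (PRP), a platelet concentrate of blood that the study took from human donors, or with vehicle. The 10 genes were the subunits Nfkb1, Nfkb2, Rela and Relb, the feedback inhibitors Nfkbia, Nfkbie and Tnfaip3, and the targets Birc3, Icam1 and Vcam1. They were chosen by gene name, with earlier results of these data known. All 10 were found among the 44291 genes of each library. The cells were fibro-adipogenic progenitors (FAPs), mesenchymal cells of skeletal muscle that can become adipocytes, and were labelled as primary wild-type mouse cells. Per the methods of the study they were sorted from hind limb muscle of C57BL/6 mice. One library came from cells given PRP and 1 from cells given vehicle, called control here, and both were then kept in adipogenic induction medium, DMEM that held insulin (10 μg/ml), dexamethasone (0.25 μM), IBMX (0.5 mM) and FBS (20%). The labels say PRP, whereas the study's text describes its transcriptome of treated FAPs as one after exosomes isolated from PRP of young donors. How many animals or cultures stand behind each library is not given in the sources used here.

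NF-kB is a family of dimeric transcription factors that inhibitor proteins of the IkB family hold in the cytoplasm of resting cells. Cytokines and microbial products activate the IKK kinases, which mark IkB for degradation and free the dimers to enter the nucleus. The dimers then switch on inflammatory, adhesion and survival genes, and among these are the genes of their own inhibitors, which close a negative feedback loop. In mesenchymal cells of tissue the pathway is best known for the output of chemokines and cytokines after injury.

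The depth, worked out from the deposited FPKM (reads per kilobase of exon, scaled to all reads assigned to genes), was 34139741 assigned reads in the control library and 40120843 in the PRP library. Each group had 1 library, so there is no replicate error and no test, and each difference is one between 2 libraries. A 95% interval beside a level or a ratio is exact but covers counting error only. Differences are given as log2(FPKM + 1) in PRP minus control, and a gene was compared with all others where its mean FPKM was at least 1. That held for 13401 genes, whose median difference was 0.01, and for all 10 NF-kB genes. Each of the 10 had between 201 and 2743 reads in a library.

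The promoters are shown first, since NF-kB binds DNA at kappaB sites that many of its own regulators carry close to their start. RefSeq (GRCm38.p6) gave promoter windows of 300 bases, from 250 before to 50 after the start, for 7 of the 10 genes, and Nfkb1, Relb and Vcam1 had no entry. The motif GGGNNTTTCC was searched on both strands. It was found in Tnfaip3, Nfkbia and Nfkb2, which is 3 of 7 genes, against 512 of 27025 genes (1.89%) with a window in the table. The 150 bases from 120 before the start to 30 after it are printed for these genes and for Nfkbie and Icam1, the other genes at least 2-fold higher in the PRP library, with the motif in capitals. All are given 5′ to 3′ on the strand of the gene.
Tnfaip3, chr10:19015381-19015530, minus strand: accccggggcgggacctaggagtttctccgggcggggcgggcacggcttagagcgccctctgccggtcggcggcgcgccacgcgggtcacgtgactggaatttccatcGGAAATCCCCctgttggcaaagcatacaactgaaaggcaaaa
Nfkbia, chr12:55492618-55492767, minus strand: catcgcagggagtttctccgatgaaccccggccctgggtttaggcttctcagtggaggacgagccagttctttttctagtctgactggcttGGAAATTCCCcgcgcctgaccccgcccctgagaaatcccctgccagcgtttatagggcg
Nfkb2, first start, chr19:46304617-46304766, plus strand: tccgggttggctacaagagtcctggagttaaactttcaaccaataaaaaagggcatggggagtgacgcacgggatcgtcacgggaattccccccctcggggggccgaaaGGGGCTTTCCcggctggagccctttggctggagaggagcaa
Nfkb2, second start, chr19:46305575-46305724, plus strand: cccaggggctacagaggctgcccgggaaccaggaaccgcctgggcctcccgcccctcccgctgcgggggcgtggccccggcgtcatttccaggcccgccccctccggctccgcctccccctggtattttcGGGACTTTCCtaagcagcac
Nfkbie, chr17:45555580-45555729, plus strand: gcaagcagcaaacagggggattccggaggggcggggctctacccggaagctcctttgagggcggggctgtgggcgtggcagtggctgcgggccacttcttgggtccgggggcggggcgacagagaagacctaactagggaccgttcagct
Icam1, chr9:21015820-21015969, plus strand: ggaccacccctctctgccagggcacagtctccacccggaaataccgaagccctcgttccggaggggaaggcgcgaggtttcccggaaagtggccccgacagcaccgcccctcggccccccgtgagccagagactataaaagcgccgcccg

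In Tnfaip3 the match lay 12 to 3 bases before the RefSeq start and in Nfkbia 29 to 20 bases before it. Each was on the strand opposite to the gene, so that the capitals above show the reverse complement. Nfkb2 had windows for 3 starts. The first start had a match at positions -11 to -2, counting the bases before the start back from -1. Another match lay at positions 11 to 20 of the second start and was also held by the window of the third start, at -225 to -216. Tnfaip3 had a second start, without a match. A second motif of equal length was the kappaB consensus GGGRNYYYCC, where R is A or G, Y is C or T and N is any base. It was found in the same 3 genes, against 1769 of 27025 genes (6.55%). It added 1 place in Nfkb2, a palindrome 39 to 30 bases before the first start. The windows of Birc3, Icam1, Nfkbie and Rela held neither, which says only that these letters are not in the window. GC content ran from 43% in Birc3 to 71.3% in Rela, beside a median of 52.7% over all windows. Of the 170 genes compared between the libraries that had a match to GGGNNTTTCC, the NF-kB genes included, 5 (2.94%) were at least 2-fold higher in PRP, and of 8497 without one 114 (1.34%) were, with median differences of 0.00 and 0.01 on the log2 scale. At least 2-fold lower were 2 (1.18%) of those with a match and 32 (0.377%) of those without.

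**Figure D1:**
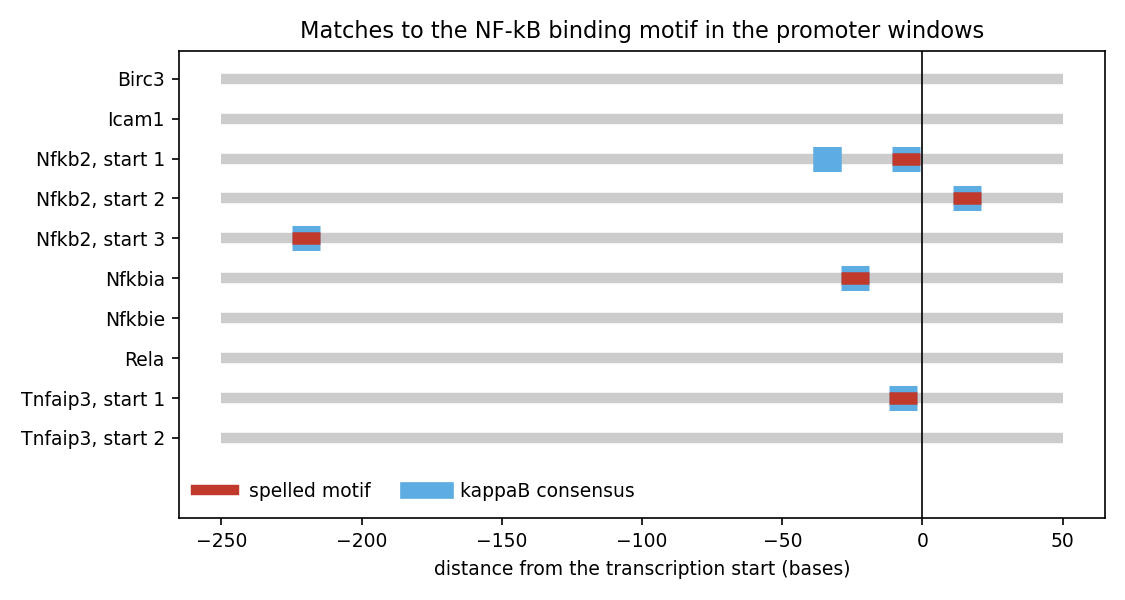
Promoter windows of the 7 NF-kB genes with an entry, 1 line per annotated start, drawn by distance from the start in bases. Red marks GGGNNTTTCC and blue the kappaB consensus, and the marks of Tnfaip3, Nfkbia and the first start of Nfkb2 lie within 39 bases before the start.

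Of the 10 genes 9 were higher in the PRP library, beside 50.9% of all 13401 genes, and Vcam1 was lower. Tnfaip3, Nfkbie and Icam1 were at least 2-fold higher, which is 3 of 10 genes against 268 of 13401 genes (2.00%), and 0 of 10 were at least 2-fold lower, against 111 genes (0.828%). The counting interval of the FPKM ratio lay above 1 for 9 genes and below 1 for 1 gene, where 26.1% of the 12369 genes with such an interval lay above 1 and 26.1% below it. The median difference of the 10 genes was 0.68, beside 0.01 for all genes. Since the 10 genes were chosen with earlier results of these data known, these counts describe them and test nothing. By role the medians were 1.26 for the feedback inhibitors, 0.61 for the targets and 0.34 for the subunits.

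**Figure D2:**
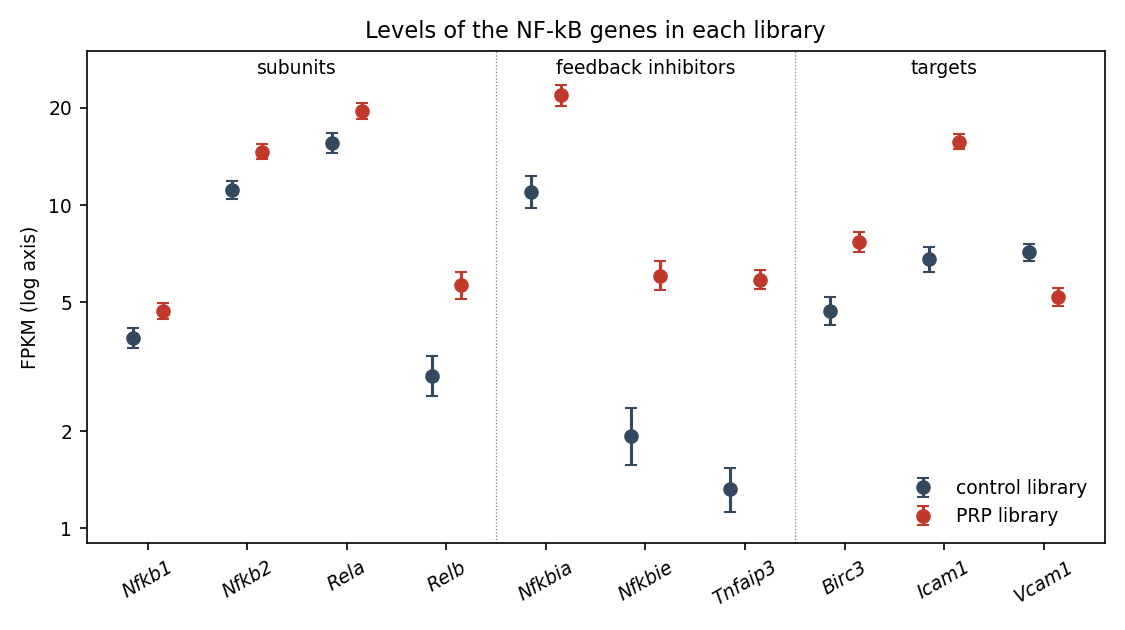
FPKM (log axis) of the 10 genes in the control library (dark) and the PRP library (red), with exact 95% counting intervals and no replicates. The red point lies above the dark one in 9 genes, by the widest margin in Tnfaip3 and Nfkbie, and below it in Vcam1.

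As a group the subunits had the smallest median difference. Rela encodes p65, the subunit that carries most of the activating function in the classical dimer, and lies at chr19:5637483-5648130 (ENSMUSG00000024927) on the plus strand. Gene coordinates here and below are those of GENCODE M21 on GRCm38, with the identifier in the files in parentheses. For Tnfaip3 and Nfkb2 the M21 span begins upstream of the RefSeq starts used for the promoters. The motif matches of these genes therefore lie inside the M21 span. Rela stood at 15.5 FPKM in control and 19.5 in PRP, the highest of the subunits in both libraries. The PRP value was 1.26 times the control value (95% interval 1.15 to 1.38), a log2 difference of 0.31. Nfkb1 encodes p105, the precursor of the p50 partner of p65, and lies at chr3:135584655-135691547 (ENSMUSG00000028163) on the minus strand. It stood at 3.88 FPKM in control and 4.70 in PRP, a ratio of 1.21 (1.10 to 1.33) and a log2 difference of 0.22. A larger log2 difference than that of Nfkb1 was seen in 23.7% of the 13401 genes, and than that of Rela in 16.8%, so these differences were small beside the general spread between the libraries.

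Nfkb2 and Relb encode the dimer of the non-canonical branch of the pathway, p100, which is cut to p52, and RelB. Nfkb2 lies at chr19:46304320-46312385 (ENSMUSG00000025225) on the plus strand. It stood at 11.1 FPKM in control and 14.6 in PRP, a ratio of 1.31 (1.20 to 1.43) and a log2 difference of 0.36. Of its exon length 18.1% is shared with genes on the other strand, 1 of them Psd at 1.33 FPKM in control and 2.52 in PRP. Whether the counting kept to the strand is not given in the sources used here. Relb lies at chr7:19606217-19629438 (ENSMUSG00000002983) on the minus strand and stood at 2.96 FPKM in control and 5.65 in PRP. Relb had the highest ratio among the subunits, 1.91 (1.61 to 2.27), with a log2 difference of 0.75 that 3.66% of genes exceeded.

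The fifth subunit gene of the family, Rel, encodes c-Rel, best known from lymphocytes. It stood at 0.651 FPKM in control and 0.714 in PRP, below the minimum mean of 1, and its ratio of 1.10 had an interval that included 1 (0.816 to 1.48). The 5 subunits summed to 34.2 FPKM in control and 45.2 in PRP. Rela made up 45.5% of that sum in control and 43.2% in PRP, and Nfkb2 made up 32.6% and 32.3%. Nfkb1 made up 11.4% and 10.4%, and Rel 1.91% and 1.58%. Relb was the subunit whose share was higher in PRP, at 12.5% against 8.67% in control. The order of the 5 genes within the sum was Rela, Nfkb2, Nfkb1, Relb and Rel in control, whereas Relb stood above Nfkb1 in PRP.

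The feedback inhibitors had the largest median difference. Nfkbia encodes IkBα, which binds p65 dimers in the cytoplasm and is resynthesised soon after NF-kB is activated. Nfkbia lies at chr12:55489410-55492647 (ENSMUSG00000021025) on the minus strand. It stood at 11.0 FPKM in control (9.77 to 12.3) and 21.8 in PRP (20.2 to 23.5), and the intervals did not overlap. The ratio was 1.99 (1.74 to 2.28) and the log2 difference 0.93, just short of 2-fold and exceeded by 2.30% of genes. In control Nfkbia stood below Rela, at 0.706 times its FPKM, and in PRP it stood at 1.12 times.

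Nfkbie encodes IkBε, a related inhibitor with slower kinetics, and lies at chr17:45555703-45563169 (ENSMUSG00000023947) on the plus strand. It stood at 1.93 FPKM in control (1.57 to 2.35) and 6.05 in PRP (5.45 to 6.70). The ratio was 3.13 (2.50 to 3.94) and the log2 difference 1.26, which 1.03% of genes exceeded. Relative to Rela it stood at 0.124 times the FPKM in control and 0.310 times in PRP.

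Tnfaip3 encodes A20, a ubiquitin-editing enzyme that shuts off signalling upstream of IKK. It lies at chr10:19000910-19015657 (ENSMUSG00000019850) on the minus strand. It was the lowest of the 10 genes in the control library, at 1.32 FPKM (1.13 to 1.54) from 326 reads, and stood at 5.88 FPKM (5.49 to 6.29) from 1705 reads in PRP. Its ratio of 4.45 (3.76 to 5.30) and log2 difference of 1.57 were the highest of the 10 genes, and 0.560% of all genes had a larger difference. By FPKM it ranked 12267th among all genes in control and 6362nd in PRP. Summed over the 3 inhibitors the level was 14.2 FPKM in control and 33.8 in PRP, while the 4 subunits summed to 33.5 and 44.5.

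**Figure D3:**
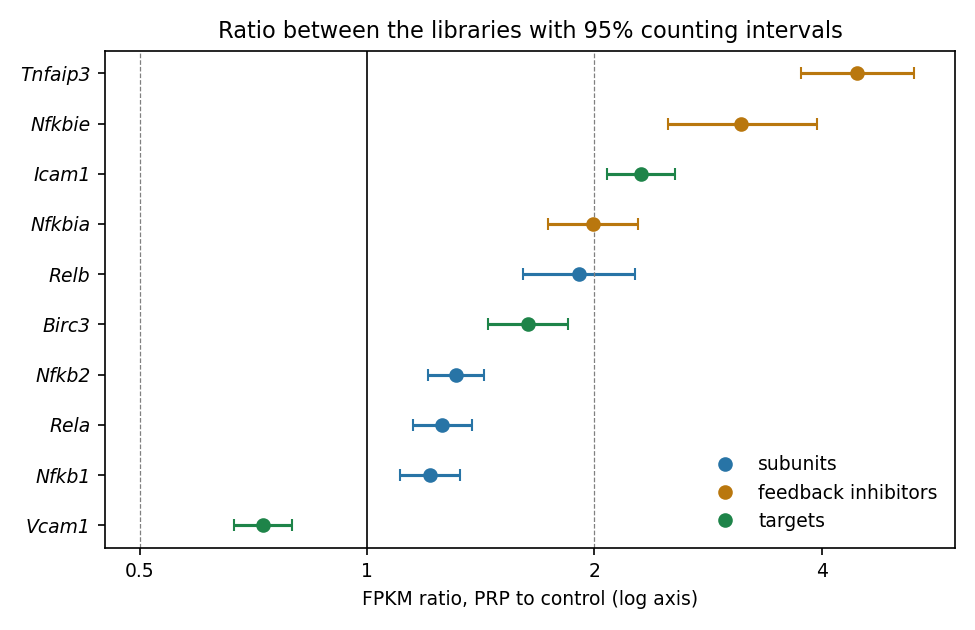
FPKM ratio of PRP to control (log axis) for each gene, with exact 95% counting intervals that hold no biological error. Solid line, ratio of 1. Dashed lines, 2-fold. The intervals of Tnfaip3, Nfkbie and Icam1 lie wholly above 2, those of Nfkbia and Relb include 2, and that of Vcam1 lies below 1.

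The 3 targets did not share a direction. Birc3 encodes cIAP2, a ubiquitin ligase that protects cells from death signalled by TNF receptors, and lies at chr9:7848699-7873186 (ENSMUSG00000032000) on the minus strand. It stood at 4.71 FPKM in control and 7.69 in PRP, a ratio of 1.63 (1.45 to 1.85) and a log2 difference of 0.61. Icam1 and Vcam1 encode adhesion molecules of the cell surface that bind integrins of leukocytes. Icam1, at chr9:21015985-21028817 (ENSMUSG00000037405) on the plus strand, stood at 6.80 FPKM in control and 15.7 in PRP. Its ratio was 2.31 (2.08 to 2.56) and its log2 difference 1.10, exceeded by 1.52% of genes. Genes on the other strand share 11.7% of its exon length, and the one there, Gm47079, stood at 0.151 FPKM in control and 0.536 in PRP.

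Vcam1, at chr3:116109949-116129688 (ENSMUSG00000027962) on the minus strand, was the only one of the 10 genes that was lower in PRP. It stood at 7.15 FPKM in control (6.73 to 7.59) and 5.21 in PRP (4.88 to 5.55). The ratio was 0.728 (0.666 to 0.796), or 1.37-fold lower, with a log2 difference of -0.39, and 10.2% of genes had a lower value. The adhesion genes thus stood near each other in control, with Icam1 at 0.951 times the FPKM of Vcam1 and overlapping counting intervals, and apart in PRP, with Icam1 at 3.01 times.

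The order of the levels differed between the libraries. In control it ran from Rela through Nfkb2, Nfkbia, Vcam1, Icam1, Birc3, Nfkb1, Relb and Nfkbie to Tnfaip3, and the intervals overlapped between neighbours for Nfkb2 and Nfkbia and for Vcam1 and Icam1. In PRP it ran from Nfkbia through Rela, Icam1, Nfkb2, Birc3, Nfkbie, Tnfaip3, Relb and Vcam1 to Nfkb1. There the intervals overlapped between Nfkbia and Rela, between Icam1 and Nfkb2, and between each pair of neighbours from Nfkbie down to Nfkb1. The highest of the 10 genes stood 11.8 times above the lowest in control and 4.65 times in PRP. The narrower range went with the position of Tnfaip3 and Nfkbie, which lay at the bottom in control and in the middle in PRP.

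**Figure D4:**
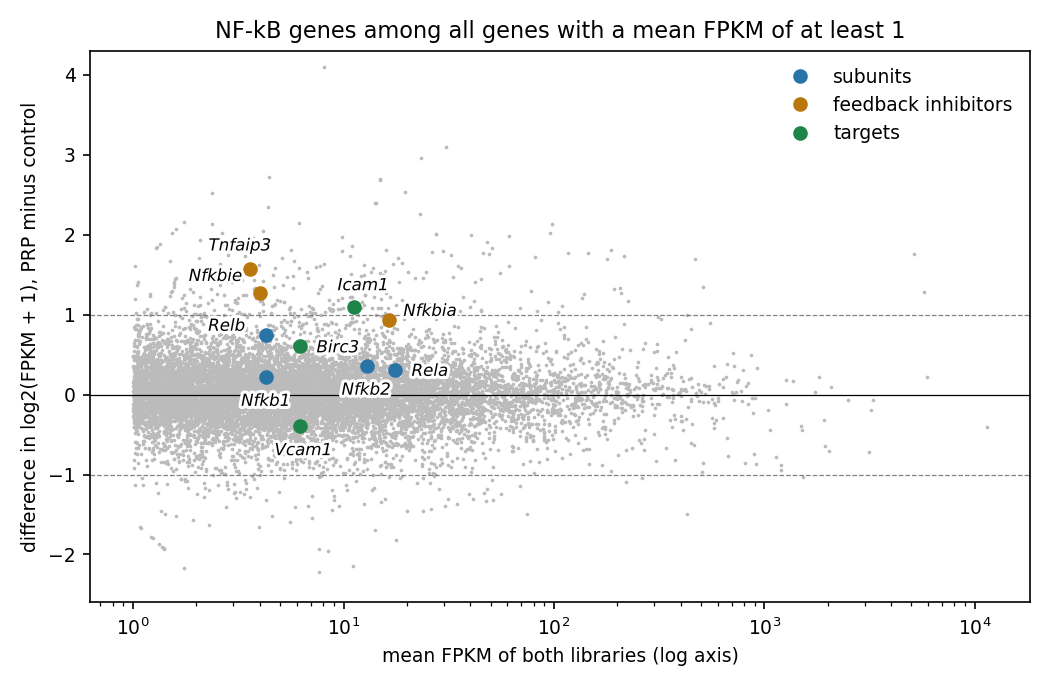
Difference in log2(FPKM + 1), PRP minus control, against the mean FPKM (log axis) of the 13401 genes with a mean of at least 1 (grey), with the 10 NF-kB genes coloured by role and dashed lines at 2-fold. Tnfaip3, Nfkbie and Icam1 lie above the upper line, and the other genes lie between the lines.

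The lists for the rest of the pathway were also chosen with earlier results of these data known. They held 98 further genes, namely ligands, receptors, adaptors, kinases, regulators and targets. In the files 97 of them were found, and 76 passed the minimum mean FPKM of 1. Of these 55 were higher and 21 lower in PRP, with a median difference of 0.18, and 8 were at least 2-fold higher and 0 at least 2-fold lower. All 8 were targets. Over all 13401 genes 50.9% were higher in PRP, 2.00% at least 2-fold higher and 0.828% at least 2-fold lower, so 0 lower among 76 is near its share. Cd40, Cxcl2 and Tlr2 were below an FPKM of 1 in control and passed through PRP alone, and without these 3 genes 52 of 73 were higher and 7 at least 2-fold higher. Of the 21 other targets 18 were higher in PRP, with a median of 0.65, while the 55 genes of the signalling chain and its regulators had a median of 0.12 and ran from -0.64 to 0.84.

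Among those other targets, all 7 chemokines and cytokines compared were higher in PRP, with a median of 0.78. Cxcl1, a neutrophil-attracting chemokine, stood at 5.06 FPKM in control and 34.2 in PRP, a log2 difference of 2.54. Cxcl2, of the same family, stood at 0.255 and 4.51 FPKM, a difference of 2.13, and Cxcl5 at 2.97 and 10.5 FPKM, a difference of 1.53. Cxcl2 had 18 reads in control and passed the minimum only through its PRP level, so its difference follows in part from that choice. Without it 6 of 6 chemokines and cytokines were higher. These differences were as large as that of Tnfaip3 or larger, apart from that of Cxcl5, which was slightly smaller. Among 7 survival and stress genes 6 were higher, with a median of 0.34. Gadd45b, a stress-response gene, stood at 12.8 FPKM in control and 46.8 in PRP, and Ier3, an immediate early gene, at 5.31 and 12.3. Among 7 genes of acute phase, proteases and adhesion 5 were higher and 2 lower, with a median of 0.95. Ptgs2, which encodes cyclooxygenase-2, stood at 5.63 FPKM in control and 19.3 in PRP, and the matrix protease gene Mmp3 at 9.89 and 30.6. Irf1, a transcription factor gene of interferon signalling, stood at 6.06 FPKM in control and 15.4 in PRP.

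Upstream of the 10 genes, 11 kinases, 14 adaptors and ubiquitin ligases and 10 receptors passed the minimum mean FPKM. On the log2(FPKM + 1) scale 0 of them were at least 2-fold apart. Over all 13401 genes 2.00% were at least 2-fold higher and 0.828% at least 2-fold lower, so 0 among so few genes is near these shares. Genes below the minimum, the adaptor Traf1 among them, are not in this count. The 11 kinase genes, which include those of the IKK complex, had a median of 0.06 and ran from -0.23 to 0.23. The widest of them was Map3k7, the gene of TAK1, at 16.8 FPKM in control and 14.1 in PRP. Of 14 adaptors and ubiquitin ligases 9 were higher and 5 lower, with a median of 0.14, and the widest was Ticam1, the adaptor TRIF of Toll-like receptors, at 2.13 FPKM in control and 1.02 in PRP, a log2(FPKM + 1) difference of -0.64. With no pseudocount its FPKM ratio was 0.476 (0.342 to 0.657), or 2.10-fold lower. Of 10 receptors 7 were higher and 3 lower, with a median of 0.13, and the widest was Tnfrsf12a, the receptor Fn14 for TWEAK, at 17.3 FPKM in control and 28.4 in PRP.

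Messages for ligands were scarce in both libraries. Tnf had 4 reads in control and 14 in PRP, a ratio of 2.98 (0.567 to 29.4), and Il1b had 2 and 9, a ratio of 3.83 (0.406 to 184.4), so a difference was not detectable at this depth. The 1 ligand that passed the minimum was Tnfsf12, the gene of TWEAK, at 5.63 FPKM in control and 3.82 in PRP, and a same-strand read-through gene shares 48.3% of its exon length. The other IkB and Rel family genes above the minimum numbered 3, all higher, and the widest was Nfkbiz, an atypical nuclear IkB, at 3.06 FPKM in control and 4.81 in PRP. Of 16 other negative regulators 10 were higher and 6 lower, with a median of 0.14. Their widest, Tank, a TRAF-binding regulator, stood at 10.5 FPKM in control and 19.6 in PRP and had a ratio of 1.87 (1.74 to 2.01), beside 1.99 for Nfkbia, 3.13 for Nfkbie and 4.45 for Tnfaip3.

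**Figure D5:**
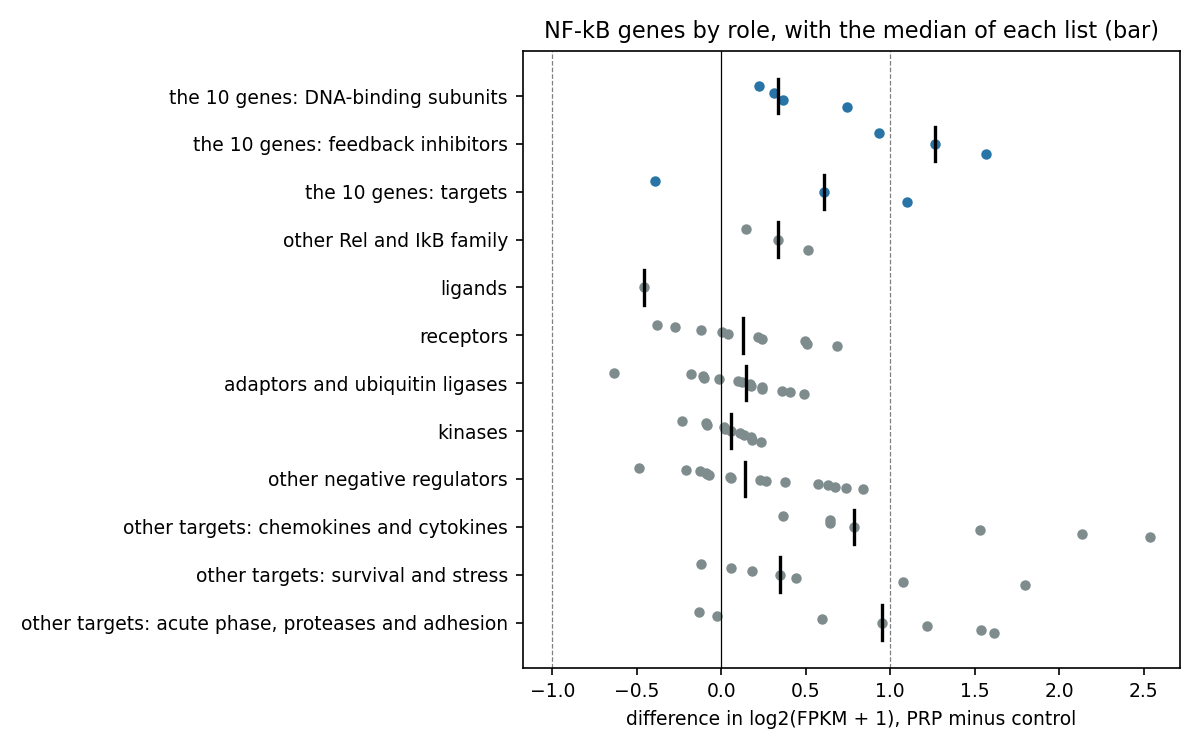
Difference in log2(FPKM + 1), PRP minus control, for each gene with a mean FPKM of at least 1, by list, with the 10 NF-kB genes in blue, the 76 further pathway genes in grey and a bar at each median. Points beyond the upper 2-fold line (dashed) occur among the feedback inhibitors and the target lists.

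The cells behind the RNA were described by marker genes. All 8 FAP markers were present in both libraries, Pdgfra among them at 28.0 FPKM in control and 19.8 in PRP. All 8 were lower in PRP, with a median difference of -0.63, and their summed level was 569.9 FPKM in control and 335.9 in PRP, of which the most abundant, Col1a1, held 218.7 and 118.6. In bulk RNA, fewer cells of a type and less RNA per cell cannot be told apart. The mitochondrial genome gave 3.70% of the summed FPKM in control and 2.06% in PRP. The part of either in the differences of the NF-kB genes was not tested.

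Icam1 and Vcam1 are also known from endothelial cells and macrophages, most of whose listed markers stood below the minimum mean FPKM of 1. The macrophage marker Lyz2, at 7.57 FPKM in control, stood above Icam1 and Vcam1 in that library. The markers picked out here were chosen with their values known. Of 10 endothelial markers 2 passed the minimum, and the sum was 6.05 FPKM in control and 10.1 in PRP. Cdh5 stood at 0.0976 FPKM in control and 0.0949 in PRP, and Cldn5 was at 0 in both. Pecam1 stood at 0.0470 FPKM in control and 0.188 in PRP, with 10 and 47 reads and a ratio interval of 1.49 to 13.4, above 1. Vwf, with 46 and 93 reads, and Esam, with 2 and 18, also had intervals above 1 (1.02 to 2.97 and 1.06 to 335.7). Those of Cdh5, Egfl7 and Emcn included 1. The markers that passed were Tek, the most abundant, at 3.56 FPKM in control and 4.73 in PRP, and Kdr, which was at least 2-fold higher in PRP, with 462 reads in control and 1531 in PRP and a ratio of 2.82 (2.43 to 3.28). Of 10 macrophage markers 2 passed the minimum, the sum was 11.2 FPKM in control and 11.3 in PRP, and those that passed were Lyz2, at 7.57 and 4.91, and Cd68, at 2.31 and 4.56. The leukocyte marker Ptprc stood at 0.0192 FPKM in control and 0.0109 in PRP, from 12 and 8 reads. The macrophage marker Adgre1 stood at 0.0543 and 0.0308, from 6 and 4 reads. Csf1r and Cd14 went the other way, with 90 and 26 reads in control and 138 and 58 in PRP. The ratio intervals of Ptprc, Adgre1, Csf1r and Cd14 included 1. That of Lyz2 lay below 1 (0.512 to 0.820) and that of Cd68 above 1 (1.41 to 2.82). Of 6 lymphocyte markers 4 were at 0 in each library. Platelet and erythroid markers summed to 3.03 FPKM in control and 1.70 in PRP, most of it Gp1bb, which shares 92.9% of its exon length with a neighbour on the same strand. Myogenic markers summed to 7.15 FPKM in control and 6.47 in PRP, with Ckm the most abundant. The part of any of these cells in the values of Icam1, Vcam1 and the other NF-kB genes was not tested. The 7 adipocyte markers summed to 145.1 FPKM in control and 140.4 in PRP, with a median difference of 0.14. Of these 5 were higher and 2 lower in PRP. The most abundant was Lpl, at 83.3 and 67.4. The ratio interval lay below 1 for Lpl, above 1 for Pparg (1.15 to 1.53) and Fabp4 (1.15 to 1.27), and included 1 for the other 4.

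The study names the microRNAs let-7f-5p and miR-16-5p as cargo of the exosomes, so the 3′UTRs of the 10 genes were searched for matches to their seeds, the bases that pair with a target. The mouse sequences are printed with bases 2 to 8 in capitals.
let-7f-5p: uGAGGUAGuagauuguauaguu
miR-16-5p: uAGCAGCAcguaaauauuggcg

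The let-7 match was found in 1 of the 10 genes, Tnfaip3, against 1015 of 10292 compared genes with a 3′UTR (9.86%). The miR-16 match was found in 3, Nfkb1, Tnfaip3 and Icam1, against 2533 genes (24.6%). Both shares rest on few genes. The stretches of 29 bases around the matches are shown, with the match in capitals, since Tnfaip3 and Icam1 are among the genes at least 2-fold higher in PRP.
Tnfaip3, let-7 match at bases 1219 to 1225 of the 3′UTR: ttctaagtatcCTACCTCtttgaagaaaa
Tnfaip3, miR-16 match at bases 261 to 267: cctgaagctatTGCTGCTcgtctaccagg
Icam1, miR-16 match at bases 47 to 53, the first of a pair that overlap: agggcaacagcTGCTGCTgcttttgaaca
Nfkb1, miR-16 match at bases 323 to 329: tgagctttctcTGCTGCTactggatcaca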

How the data were processed

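RNA was extracted with TRIzol and sequenced after a stranded mRNA preparation, 1 library per group. The submitters' processing notes name fastp 0.23.4, STAR 2.5.3a, featureCounts and mm10. The deposited values are FPKM, computed by the authors for 44291 genes. The annotation release and the strand setting of the counting are not given in the sources used here.

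The identifiers of 41492 genes matched GENCODE M21. With its exon lengths, 26406 of 28160 genes (93.8%) came out as whole reads within 0.001, which gave the depths. Even numbers of reads prevailed (79.3% and 80.3% of genes with up to 8 reads), so intervals used reads divided by 2. They are exact Poisson intervals for a level and Clopper-Pearson intervals for a ratio, cover counting error only and ignore PCR duplicates. No count test was run, and 1 library per group allows no p-value.

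The pseudocount of 1 understates differences of low genes. Genes named outside the 10 were those at least 2-fold apart in each list (at most 3), otherwise its widest gene, and in marker lists the most abundant gene. Others named, such as Pdgfra, Cdh5, Pecam1, Cldn5, Kdr, Ptprc, Adgre1, Cd68, Tnf and Il1b, were picked as defining genes or after their values were seen. The 10 genes and all lists were chosen with earlier results of these data known. Cd40lg and Myf5 were not analysed here. The 3′UTR was the longest of the protein-coding transcripts of M21. Alternatives were other pseudocounts, filters, scalings, fold thresholds and a second motif, and, chosen after seeing the data, the removal of overlapping genes and ratios with no pseudocount. Python 3.11.15, NumPy 2.4.6, pandas 2.3.3, SciPy 1.17.1 and matplotlib 3.10.9 were used, and the procedures were tested on simulated data.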

Additional observations from a re-analysis of the deposited data

How the results depend on the processing

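Of the 10 genes, 9 were higher and 1 lower in PRP under all 11 alternatives, except that a minimum mean FPKM of 5 left 6 genes, 5 higher and 1 lower. A pseudocount, filter, fold threshold or removal of genes cannot change the sign of a difference, so most of these results were fixed in advance. The rescalings and the centring could, but they were small, with factors of 0.989 to 1.01 and a shift of 0.007 on the log2 scale. The count at least 2-fold higher was 3 and became 0 with a pseudocount of 5 or a threshold of 4-fold, 1 (Icam1) at a minimum of 5, and 6 at 1.5-fold, with Birc3, Nfkbia and Relb added. The count at least 2-fold lower was 0 throughout. The median difference, 0.68, was 0.80 with a pseudocount of 0.1, 0.40 with 5, 0.48 at a minimum of 5, 0.66 rescaled to a common sum, 0.67 centred on the median gene, 0.65 rescaled without mitochondrial and top genes, and 0.82 as a ratio with no pseudocount. The log2 difference of single genes was most affected in Tnfaip3 (0.78 to 2.15) and Nfkbie (0.67 to 1.65). Of 86 values 0 changed sign, which most of the alternatives could not bring about. Of the other pathway genes, 8 at least 2-fold higher became 4 with a pseudocount of 5, 18 at 1.5-fold and 2 at 4-fold, and 0 lower became 1 with a pseudocount of 0.1 and 1 at 1.5-fold. Over all genes, 379 at least 2-fold different became 739 with a pseudocount of 0.1, 113 with 5, 210 at a minimum of 5, 1436 at 1.5-fold, 26 at 4-fold and 796 with no pseudocount. The promoter count was 3 of 7 genes with either motif. These shifts follow from how each alternative is built. With 1 library a group there were no pairs to analyse. Counting error is widest for Nfkbie, which had 201 reads in control, and the error between cultures or animals is unknown.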

Other observations

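Of the further pathway genes found, 21 stood below a mean FPKM of 1 and were left out of the counts. Those given here were chosen after their values were seen. Csf2, the gene of the growth factor GM-CSF, had 2 reads in control and 61 in PRP, that is 0.0732 and 1.90 FPKM, a ratio of 26.0 with a counting interval of 4.32 to 1058. Traf1, an adaptor of TNF receptors and a known NF-kB target, had 2 reads in control and 26 in PRP, a ratio of 11.1 (1.66 to 470.1). Ccl20, a chemokine gene, had 14 and 44 reads, a ratio of 2.67 (1.10 to 7.41), and Nfkbid, an atypical nuclear IkB gene, had 19 and 52, a ratio of 2.33 (1.07 to 5.52). Lcn2, which encodes the iron-carrier-binding protein lipocalin-2, had 40 and 85 reads, a ratio of 1.81 (1.04 to 3.25). Each of these 5 ratio intervals lay above 1, which follows from how the genes were picked and says nothing about the 21 as a group. The intervals of Rel, Tnf, Il1b, Tlr3 and Ccl5, also among the 21, included 1. The first pair of the 5 rest on 2 reads in control, and all 5 are too low for the size of the difference to be read closely.

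Within the list of 16 other negative regulators the ratio interval lay above 1 for 9 genes, below 1 for 3 and included 1 for 4, so the list did not share a direction. The genes described here were chosen after their values were seen. Of the genes whose products work with A20, Tnip1 stood at 32.5 FPKM in control and 50.8 in PRP, a ratio of 1.56 (1.48 to 1.65), while Tnip2 was lower in PRP, with a ratio of 0.854 (0.763 to 0.956). Tax1bp1 had a ratio of 1.04 (1.01 to 1.06) and Itch one of 0.930 (0.848 to 1.02), and the interval of Rnf11 ran from 0.864 to 1.02. Of the inhibitors of Toll-like receptor signalling, Irak3 had a ratio of 1.73 (1.58 to 1.91) and Tollip one of 0.908 (0.830 to 0.993). Zc3h12a, the gene of the RNase Regnase-1, had a ratio of 1.85 (1.37 to 2.53). Pdlim2, which encodes a ubiquitin ligase for nuclear p65, had a ratio of 0.645 (0.543 to 0.766).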
